A study of Saccharomyces cerevisiae BY4741 with 40 samples.

Results

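The tRNA genes of budding yeast were followed through 2 tables of transcription start site clusters (TSSCs), each made from the sequenced 5′-ends of poly(A)+ RNA. A TSSC was taken when it belonged to the F category, which holds stable ncRNAs and repeats, and its annotation name was that of a tRNA gene: a lower-case t, the 1-letter code of the amino acid, the anticodon in brackets and a letter for the chromosome, as in tS(AGA)B. There were 172 tRNA TSSCs of 17812 in the *RRP6* table, and 44 of 21707 in the *SET2* table, with 1 TSSC per gene in each. Together they covered 180 genes, of which 36 were in both tables. The coordinates given for all 172 and all 44 genes were those of annotated tRNA genes in the RefSeq R64 assembly. This shows that the genes are tRNA genes, not that each TSSC is the start of the tRNA transcript.

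In the *RRP6* experiment, 3 libraries each were made from *upf1∆rrp6∆*, *rrp6∆*, *upf1∆* and wild-type cells. In the *SET2* experiment, 3 libraries each were made from *upf1∆set2∆*, *set2∆*, *upf1∆* and wild-type cells. All strains, the wild-type ones included, were BY4741 with the can1_delta allele, grown in rich glucose medium. Per the labels, rrp6_delta carried hphMX6, set2_delta carried KANMX6, and upf1_delta carried KANMX6, or HIS3MX6 in the set2_delta background. The libraries of a genotype came from 1 or 2 strain numbers, and the *upf1∆* libraries all came from the same strain number. *RRP6* encodes a 3′ to 5′ exonuclease of the nuclear exosome, *UPF1* an RNA helicase required for nonsense-mediated mRNA decay (NMD), and *SET2* the histone H3 lysine 36 methyltransferase that travels with RNA polymerase II.

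tRNA genes are transcribed by RNA polymerase III, which is recruited through 2 promoter elements inside the gene, the A box and the B box, bound by TFIIIC. TFIIIC places TFIIIB upstream of the gene, and transcription starts a short way before the mature tRNA, so that the primary transcript carries a 5′ leader. RNase P removes this leader, RNase Z or exonucleases trim the 3′ trailer, and some precursors are then spliced. Mature tRNAs have neither a cap nor a long poly(A) tail. In yeast nuclei, faulty or surplus tRNA precursors can be given a short poly(A) tail by the TRAMP complex and degraded by the exosome and Rrp6.

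The values are normalised reads pooled by the authors into 1 whole number per genotype. Summed over all TSSCs they came to between 4276051 and 4985459 in the 4 genotypes of the *RRP6* experiment and between 3914205 and 4590115 in the *SET2* experiment. tRNA TSSCs took few of them: 1785 in *upf1∆rrp6∆*, 1471 in *rrp6∆*, 528 in *upf1∆* and 368 in wild-type cells, and between 149 and 294 in the *SET2* experiment. As each genotype has a single pooled value, no spread between libraries could be computed and no difference was tested. Ratios are on the log2(value + 1) scale, which understates the change of low values, and TSSCs past a 2-fold ratio on that scale were counted. For the deleted *RRP6* gene, the mRNA TSSC held 7 reads in *upf1∆rrp6∆* and 2 in *rrp6∆*, against 88 in *upf1∆* and 86 in wild-type cells.

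A TSSC entered a table when it reached a minimum of reads in at least 1 library, gained signal with tobacco acid pyrophosphatase (TAP), and had most of its starts on a purine preceded by a pyrimidine. The TAP test used *upf1∆rrp6∆* RNA for the *RRP6* table and *upf1∆set2∆* RNA for the *SET2* table. A tRNA gene that is near 0 in wild-type cells is therefore listed only through a genotype where it is high, and the counts given here describe listed TSSCs, not all tRNA genes. The filters used different RNA, so the difference between 172 and 44 listed TSSCs cannot be told apart from a difference in filtering.

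Most tRNA TSSCs lay in the 5′ leader. The sequences of 6 genes that stood high in *rrp6∆* show where. Each line gives the 20 bases before the tRNA and its first 10 bases, from RefSeq R64, with the bases of the TSSC in capitals.
tS(UGA)P: aacactACCAgattattttgggcactatgg
tR(CCG)L: tatctctGATAatttattatgctcctctag
tF(GAA)P1: ggttagaGCAtagaaattgagcggatttag
tY(GUA)D: aacacctcGCAagaaatcgactctcggtag
tR(ACG)J: cAGAGATCTTTATAttcttgttcctcgtgg
tH(GUG)G2: caaagttcATAAAGAAATTAGCCAtcttag
These windows are at chrXVI:689545-689574 (+), chrXII:818589-818618 (+), chrXVI:560280-560309 (-), chrIV:946292-946321 (+), chrX:233919-233948 (+) and chrVII:319761-319790 (+). The capitals of the first 4 end between 10 and 11 bases before the tRNA, whereas those of tH(GUG)G2 run on to base 4 of the tRNA.

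Of the 171 nuclear tRNA TSSCs in the *RRP6* table, 140 lay wholly within the 30 nt before the tRNA, and these are called leader TSSCs below. A further 22 spanned the first base of the tRNA, 4 lay inside it and 5 began further upstream. The leader TSSCs were narrow, and 111 of the 140 were 1 nt wide. Their last base was a median of 10 nt before the tRNA, with a range of 4 to 14 nt, and 127 of 140 ended between 9 and 12 nt before it. In the *SET2* table, 23 of 44 TSSCs were leader TSSCs, 21 of them 1 nt wide, and their last base was also a median of 10 nt before the tRNA.

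**Figure D1:**
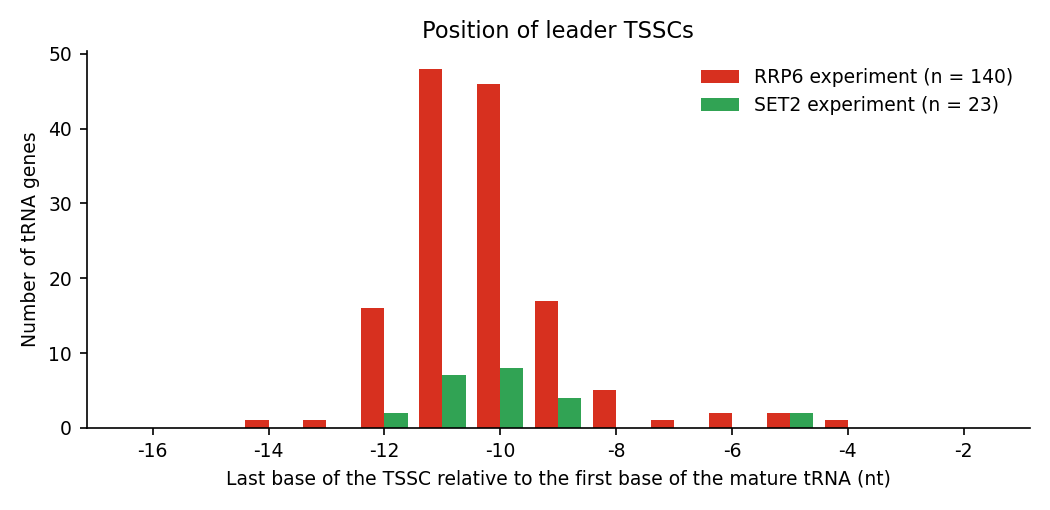
Number of tRNA genes (y axis) by the position of the last base of the leader TSSC, in nt before the first base of the mature tRNA (x axis), for the 140 leader TSSCs of the *RRP6* experiment and the 23 of the *SET2* experiment. In both experiments the highest bars stand at 10 and 11 nt before the tRNA, with 46 and 48 genes in the *RRP6* experiment.

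The 6 leader TSSCs that ended under 8 nt from the tRNA belonged to tW(CCA)G1, tW(CCA)G2, tI(UAU)D, tI(UAU)L, tR(ACG)J and tX(XXX)L, and were singled out after their positions were seen. The tryptophan and UAU isoleucine genes among them contain an intron. Both tI(UAU) copies started at a G, 6 nt before the tRNA, in a leader of identical sequence.
tI(UAU)L: tttacgtctctttcGaaaatgctcgtgtag
tW(CCA)G1: attcttggatatttcAagatgaagcggtgg
These windows are at chrXII:605423-605452 (-) and chrVII:287446-287475 (-). The TSSC of tI(UAU)L held 11 reads in *upf1∆rrp6∆*, 11 in *rrp6∆*, 1 in *upf1∆* and 0 in wild-type cells. That of tW(CCA)G1 held 14 in *upf1∆rrp6∆*, 14 in *rrp6∆*, 2 in *upf1∆* and 2 in wild-type cells.

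At the 111 leader TSSCs of 1 nt, the start was an A in 96, preceded by a C in 78 and by a T in 18. The remaining starts were a G, preceded by a C in 10 and by a T in 5. A pyrimidine before a purine is what the authors' filter asks for, so that step itself is not a finding. The base after the start was not filtered on, and CAA, with the start at the first A, accounted for 51 of the 111, or 45.9%. The letters CAA occurred somewhere between 15 and 6 nt before the tRNA in 92 of the 171 nuclear genes with a TSSC (53.8%), in 47 of the 104 without one (45.2%) and in 139 of all 275 (50.5%). On the other strand they occurred in 11 genes with a TSSC and in 20 of all 275. The 51 TSSCs that started at CAA summed to 259 reads in *rrp6∆* and 47 in wild-type cells, and the other 60 to 236 in *rrp6∆* and 49 in wild-type cells. Inside the gene, the B box letters GTTCNA were in the sense strand of 168 of the 171 spliced tRNAs (98.2%), of 102 of the 104 without a TSSC (98.1%) and of 270 of all 275 (98.2%). They were in the antisense strand of 14 with a TSSC and of 16 of all 275. The A box letters GGCNNAG were in 69 of the 171 (40.4%), 35 of the 104 without a TSSC (33.7%) and 104 of all 275 (37.8%), and in the antisense strand of 15 with a TSSC and 28 of all 275. These matches are a description of the letters, and no difference between the shares was tested.

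RefSeq annotates 275 nuclear and 24 mitochondrial tRNA genes. A TSSC was listed for 171 of the nuclear genes (62.2%) and 1 mitochondrial gene, tY(GUA)Q, in the *RRP6* experiment, and for 44 nuclear genes (16.0%) in the *SET2* experiment. The mitochondrial one held 2 reads in *upf1∆rrp6∆*, 1 in *rrp6∆*, 2 in *upf1∆* and 1 in wild-type cells. By amino acid, the listed share in the *RRP6* table was uneven. All 10 asparagine genes and all 4 cysteine genes were listed, as were 18 of 19 serine, 9 of 10 phenylalanine and 16 of 18 valine genes. Only 1 of 16 aspartate genes, 1 of 16 glutamate genes, 3 of 15 isoleucine genes and 5 of 16 alanine genes were listed. Genes with an intron were listed more often, with 48 of 60 (80.0%), than genes without, with 123 of 215 (57.2%). Copies of a tRNA gene share sequence, so these counts are not independent.

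In *rrp6∆* cells most leader TSSCs stood higher than in wild-type cells. The lowest, median and highest values of the 140 leader TSSCs were 0, 4 and 47 in *rrp6∆* against 0, 1 and 5 in wild-type cells, and their sums were 910 and 140, a 6.50-fold ratio. Of the 140, 96 were more than 2-fold higher in *rrp6∆* and 0 were more than 2-fold lower. Over all tRNA TSSCs, 110 of 172 (64.0%) were more than 2-fold higher, where 24.7% of all TSSCs of the table were, and 0 were more than 2-fold lower, where 3.13% of all were. The median log2 ratio was 1.58 over tRNA TSSCs and 0.25 over all TSSCs, and the mRNA class had a median of 0.04. In 132 of the 140 leaders the value was higher in *rrp6∆* by any amount, in 7 it was equal and in 1, tS(UGA)I (SUP17, a serine tRNA gene known from nonsense suppressors), it was 0 in *rrp6∆* against 1 in wild-type cells. By any amount, 10511 of all 17812 TSSCs of the table were higher in *rrp6∆*. The 50 leaders at 0 in wild-type cells could not have been lower. The 106 leaders at 0 or 1 in wild-type cells could not have been counted as more than 2-fold lower, so the count of 0 was largely fixed in advance. Leaders low in wild-type cells are also listed only through a genotype where they are high. The median wild-type value was 1 for leaders and 7 for all TSSCs, so the shares over all TSSCs are not from like values.

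**Figure D2:**
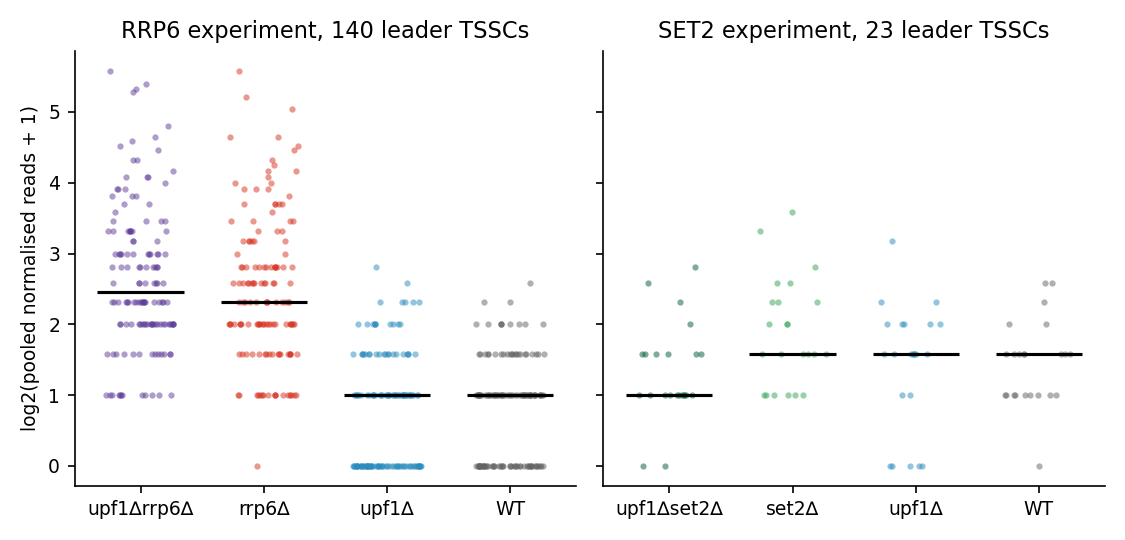
Pooled normalised reads of each leader TSSC on the log2(value + 1) scale (y axis) by genotype (x axis), with the median as a line, for 140 leader TSSCs of the *RRP6* experiment and 23 of the *SET2* experiment; points are spread sideways for legibility. The highest point of each genotype of the *RRP6* experiment, which is not the same gene in each, stands at 47 reads in *upf1∆rrp6∆*, 47 in *rrp6∆*, 6 in *upf1∆* and 5 in wild-type cells.

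The wild-type values were low, at 0 in 50 of the 140 leaders, and a pooled value is rounded to a whole read. Among the 39 tRNA TSSCs with a wild-type value of at least 3, 20 were more than 2-fold higher in *rrp6∆*, where 15.6% of all TSSCs with that wild-type value were, and 0 were more than 2-fold lower, where 4.20% were. Their sums were 679 in *rrp6∆* and 263 in wild-type cells. The 12 leaders among them summed to 196 in *rrp6∆* and 40 in wild-type cells, and 8 were more than 2-fold higher. The count over all tRNA TSSCs depended on the pseudocount and was 28.5% with 4 in place of 1. No share over all TSSCs of the table was computed with that pseudocount, so 28.5% cannot be set beside 24.7%. The 32 TSSCs of snoRNA and snRNA genes, other short non-coding RNAs of the F category, had a median log2 ratio of 3.69, and the 292 of long terminal repeats a median of 0.00.

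The 8 genes with the largest log2 ratio in *rrp6∆*, among the 61 whose 4 values sum to at least 20, came from different anticodons. The histidine gene tH(GUG)G2 held 56 reads in *upf1∆rrp6∆*, 68 in *rrp6∆*, 4 in *upf1∆* and 2 in wild-type cells. Its log2 ratio of *rrp6∆* over wild-type was 4.52. The serine gene tS(UGA)P (SUP16) held 19 in *upf1∆rrp6∆*, 16 in *rrp6∆* and 0 in both *upf1∆* and wild-type cells. The arginine gene tR(ACG)J held 47 in *upf1∆rrp6∆*, 47 in *rrp6∆*, 4 in *upf1∆* and 3 in wild-type cells. In each of these the *upf1∆* value stayed within 2 reads of the wild-type value.

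The arginine gene tR(CCG)L (TRR4), the only gene for its anticodon, held 38 reads in *upf1∆rrp6∆*, 24 in *rrp6∆*, 1 in *upf1∆* and 2 in wild-type cells. The tyrosine gene tY(GUA)J1 (SUP7) held 13 in *upf1∆rrp6∆*, 7 in *rrp6∆*, 1 in *upf1∆* and 0 in wild-type cells. The leucine gene tL(UAA)J (SUP51), one of the 12 with the highest mean, whose TSSC reaches the first base of the tRNA, held 32 in *upf1∆rrp6∆*, 29 in *rrp6∆*, 4 in *upf1∆* and 4 in wild-type cells. Most of these genes were chosen for their ratio of *rrp6∆* over wild-type, so that ratio is a description of them. For tL(UAA)J the 38 bases that follow the last base of its TSSC occur 7 times in the genome. Reads starting there may come from other copies.

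The serine genes tS(AGA) and the phenylalanine genes tF(GAA) had the highest leader sums of any anticodon in *rrp6∆*, at 143 and 137 reads. The 11 listed tS(AGA) genes summed to 144 reads in *upf1∆rrp6∆*, 143 in *rrp6∆*, 24 in *upf1∆* and 18 in wild-type cells, and all 11 were more than 2-fold higher in *rrp6∆*. The 9 listed tF(GAA) genes summed to 177 in *upf1∆rrp6∆*, 147 in *rrp6∆*, 18 in *upf1∆* and 21 in wild-type cells. All 9 were more than 2-fold higher in *rrp6∆*. Over all 140 leader TSSCs the share was 68.6%, and over all TSSCs it was 24.7%. The 2 families were picked for their high *rrp6∆* sums, so the counts of 11 and 9 only describe them. Copies of a family share sequence and do not count as separate results. Within both families the copies differed widely, from 3 to 36 reads in *rrp6∆* for tS(AGA) and from 8 to 32 for tF(GAA). The copies of each family share nearly the same mature sequence, with 2 distinct spliced sequences among the 11 and 2 among the 9. Most do not share the leader. The exceptions are tF(GAA)H1 and tF(GAA)H2, which are identical from the start onward, so reads from there match 2 places in the genome. The differing leaders can be seen in 4 tS(AGA) copies ordered by their *rrp6∆* value.
tS(AGA)B: tatgatatcATGtaaaacgaggcaacttgg
tS(AGA)J: aacaaactcAagagattaaaggcaacttgg
tS(AGA)D1: caataattcATCAttagtaaggcaacttgg
tS(AGA)L: atataaatcAatagtcatatggcaacttgg
These windows are at chrII:227055-227084 (+), chrX:524084-524113 (-), chrIV:437752-437781 (+) and chrXII:168016-168045 (-). The first bases of the tRNA are the same in all 4, while the leaders differ.

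The TSSC of tS(AGA)B held 39 reads in *upf1∆rrp6∆*, 36 in *rrp6∆*, 5 in *upf1∆* and 4 in wild-type cells. That of tS(AGA)J held 24 in *upf1∆rrp6∆*, 24 in *rrp6∆*, 3 in *upf1∆* and 5 in wild-type cells. That of tS(AGA)D1 held 16 in *upf1∆rrp6∆*, 22 in *rrp6∆*, 3 in *upf1∆* and 1 in wild-type cells. The lowest copy, tS(AGA)L, held 4 in *upf1∆rrp6∆*, 3 in *rrp6∆*, 1 in *upf1∆* and 0 in wild-type cells, and still had higher values in both *rrp6∆* genotypes. Among the phenylalanine genes, tF(GAA)P1 was the highest, with 41 reads in *upf1∆rrp6∆*, 32 in *rrp6∆*, 3 in *upf1∆* and 2 in wild-type cells.

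**Figure D3:**
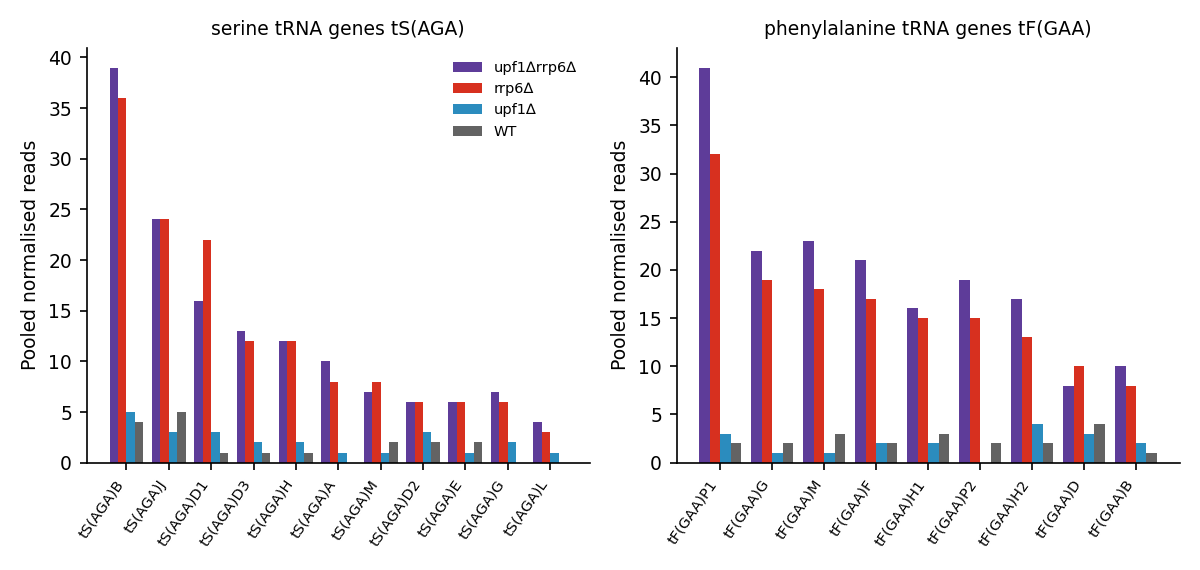
Pooled normalised reads (y axis) of each listed copy of the serine tRNA genes tS(AGA) and the phenylalanine tRNA genes tF(GAA) (x axis, ordered by the *rrp6∆* value) in the 4 genotypes of the *RRP6* experiment. Every copy has its *upf1∆* and wild-type bars at 5 reads or below, and both *rrp6∆* genotypes above them.

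The leaders allow copies to be told apart in most cases. The shortest reads, of 50 bases, hold 38 bases of RNA once the 12-base tag is removed. The 38 genomic bases that follow the start were found once in the genome for both edges of 109 of the 140 leader TSSCs. In the other leaders they recur in up to 7 places, so the reads of such copies may be shared among them. How reads with several equal matches were placed is not given in the sources used here.

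Genes with an intron were compared with those without, because splicing follows leader removal for most yeast tRNAs. The 42 leader TSSCs of genes with an intron summed to 405 reads in *upf1∆rrp6∆*, 340 in *rrp6∆*, 45 in *upf1∆* and 47 in wild-type cells, and 31 were more than 2-fold higher in *rrp6∆*, with a median log2 ratio of 2.00. The 98 of genes without one summed to 624 in *upf1∆rrp6∆*, 570 in *rrp6∆*, 98 in *upf1∆* and 93 in wild-type cells, and 65 were more than 2-fold higher, with a median of 1.58. These counts made up 73.8% of the leader TSSCs of genes with an intron and 66.3% of those without. The share was 68.6% over all 140 leader TSSCs and 24.7% over all TSSCs. Both kinds stood higher in *rrp6∆*, and the difference between them was not tested.

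Genes with a name of their own were mostly found as suppressors or as the only or special copies of their kind. The initiator methionine tRNA, which starts translation, is encoded by the IMT genes. IMT2, tM(CAU)P, held 4 reads in *upf1∆rrp6∆*, 7 in *rrp6∆*, 0 in *upf1∆* and 1 in wild-type cells. IMT3, tM(CAU)J3, held 3 in *upf1∆rrp6∆*, 2 in *rrp6∆* and 0 in both others, and IMT1 had a TSSC that began 88 nt upstream. The 5 elongator genes EMT1 to EMT5, whose tRNA inserts methionine within proteins, held between 4 and 12 reads in *rrp6∆* and between 1 and 3 in wild-type cells. EMT3, tM(CAU)J2, was the highest of them in *rrp6∆*, with 10 reads in *upf1∆rrp6∆*, 12 in *rrp6∆*, 2 in *upf1∆* and 2 in wild-type cells.

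The tyrosine genes, a family in which nonsense suppressors have been found, summed to 78 reads in *upf1∆rrp6∆*, 68 in *rrp6∆*, 11 in *upf1∆* and 7 in wild-type cells over 6 listed nuclear copies, all of them more than 2-fold higher in *rrp6∆*. The highest, SUP2 (tY(GUA)D), held 27 in *upf1∆rrp6∆*, 21 in *rrp6∆*, 2 in *upf1∆* and 2 in wild-type cells. The 12 glycine genes tG(GCC), a family known for frameshift suppressors, were lower, with 1 to 6 reads in *rrp6∆* and 0 to 2 in wild-type cells. Of these 12, 9 were more than 2-fold higher in *rrp6∆*. The share was 68.6% over all leader TSSCs and 24.7% over all TSSCs. Copies of a family are not separate results, and some may share reads. The bases after the start occur 2 times in the genome for tY(GUA)F1 and tY(GUA)F2. Those after the last base of the tY(GUA)M1 TSSC occur 5 times. Those of tY(GUA)D, tY(GUA)J1 and tY(GUA)J2 occur once. Other genes that are the only ones for their anticodon differed in their ratios. SUP61, tS(CGA)C, held 25 reads in *upf1∆rrp6∆*, 17 in *rrp6∆*, 7 in *upf1∆* and 4 in wild-type cells, and CDC65, tQ(CUG)M, held 11 in *upf1∆rrp6∆*, 12 in *rrp6∆*, 6 in *upf1∆* and 7 in wild-type cells, within 2-fold of each other. TRT2, tT(CGU)K, held 3 in *upf1∆rrp6∆*, 2 in *rrp6∆* and 0 in both others.

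The smallest ratios in *rrp6∆* among the 61 genes were those of TSSCs that reach beyond the leader. The alanine gene tA(AGC)P held 6 reads in *upf1∆rrp6∆*, 8 in *rrp6∆*, 5 in *upf1∆* and 7 in wild-type cells, and the valine gene tV(AAC)H held 22 in *upf1∆rrp6∆*, 22 in *rrp6∆*, 15 in *upf1∆* and 19 in wild-type cells. Both TSSCs began 65 nt or more upstream and overlap a long terminal repeat annotated on the same strand. The aspartate gene tD(GUC)N had the highest values in all genotypes but *upf1∆*, where tN(GUU)P was higher, with 159 reads in *upf1∆rrp6∆*, 112 in *rrp6∆*, 77 in *upf1∆* and 53 in wild-type cells, over a TSSC of 239 nt that overlaps a long terminal repeat on the other strand. The first 38 bases of that TSSC occur 99 times in the genome. In the *SET2* table the TSSCs that overlap those of tA(AGC)P and tV(AAC)H were not in the tRNA class. How much of these 3 values comes from the tRNA gene was not tested. Among the 140 leader TSSCs, 1 overlapped a long terminal repeat, that of the glycine gene SUF16, tG(GCC)C.

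In *upf1∆* the leaders were close to their wild-type values. The 140 leader TSSCs summed to 143 reads in *upf1∆* and 140 in wild-type cells, with lowest, median and highest values of 0, 1 and 6 in *upf1∆* against 0, 1 and 5 in wild-type cells. Of the 140, 3 were more than 2-fold higher and 3 more than 2-fold lower in *upf1∆*, and 61 had equal values. Over all 172 tRNA TSSCs, 9 (5.23%) were more than 2-fold higher, where 31.5% of all TSSCs of the table were, and 3 (1.74%) were more than 2-fold lower, where 0.764% of all were. These shares depended on the settings: 40.0% were higher among TSSCs with a mean of at least 5 in both genotypes together, and 18.0% were lower relative to the mRNA median or with a pseudocount of 0.1. No share over all TSSCs was computed at these settings. The median log2 ratio was 0.00 over tRNA TSSCs and 0.49 over all TSSCs. The threonine gene tT(UGU)P had the largest leader ratio, with 6 reads in *upf1∆* and 1 in wild-type cells.

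In the double mutant the leaders resembled those of *rrp6∆* in level. Their sum was 1029 in *upf1∆rrp6∆* against 910 in *rrp6∆*, and 1 leader was more than 2-fold higher and 1 more than 2-fold lower. Over all 172 TSSCs, 3 were more than 2-fold higher in *upf1∆rrp6∆* than in *rrp6∆*, where 34.8% of all TSSCs were, and 2 were more than 2-fold lower, where 0.342% of all were. The 3 were tN(GUU)P, the initiator gene IMT1 (tM(CAU)O1) and tT(AGU)C, and the 2 were tR(ACG)D and tH(GUG)G1, all named because the counts are small. IMT1 held 15 reads in *upf1∆rrp6∆*, 6 in *rrp6∆*, 6 in *upf1∆* and 3 in wild-type cells. Against *upf1∆*, 120 of the 172 were more than 2-fold higher in *upf1∆rrp6∆*, where 28.6% of all were, and 0 were more than 2-fold lower, where 3.96% of all were. Against wild-type cells, 126 of the 172 (73.3%) were more than 2-fold higher in *upf1∆rrp6∆*, where 52.3% of all were, and 0 were more than 2-fold lower, where 1.57% of all were. The 106 leaders at 0 or 1 in wild-type cells could not have been counted as more than 2-fold lower than wild-type here either. These comparisons share genotypes, so they are not separate evidence.

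**Figure D4:**
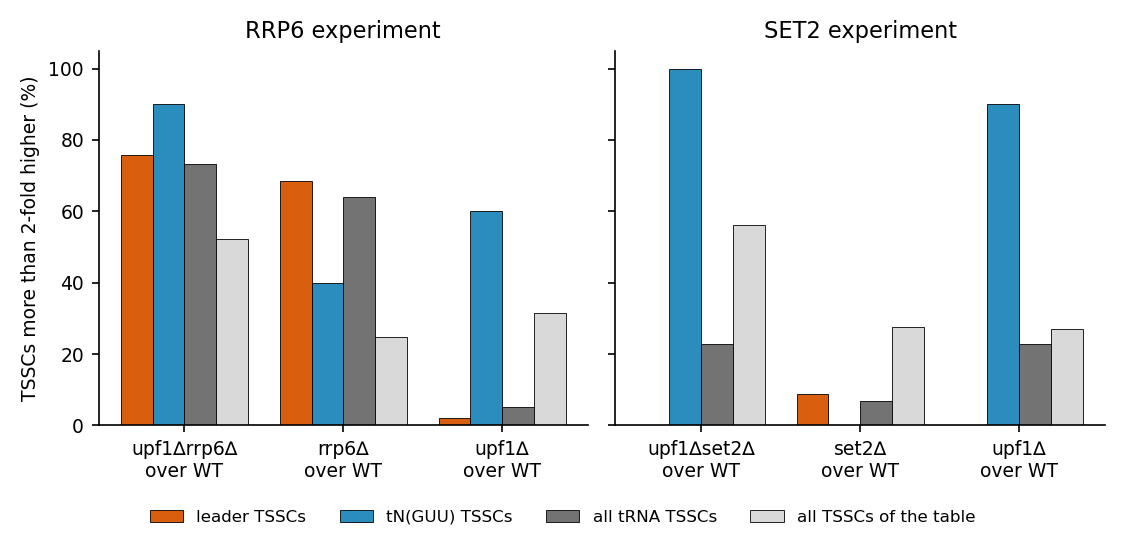
Share of TSSCs more than 2-fold higher than in wild-type cells, in % (y axis), for leader TSSCs, tN(GUU) TSSCs, all tRNA TSSCs and all TSSCs of the table, by mutant (x axis) in each experiment. In *rrp6∆* the share was 68.6% of leader TSSCs and 24.7% of all TSSCs. In *upf1∆* of the *RRP6* experiment it was 2.14% of leader TSSCs, 60.0% of the 10 tN(GUU) TSSCs and 31.5% of all TSSCs. The tN(GUU) copies may share reads, so they are not separate results, and they were singled out after the data were seen.

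The asparagine genes tN(GUU) differed from the other tRNA genes in position and in their values in *upf1∆*. None of the 10 copies had a leader TSSC. The same TSSC, from base 7 to base 22 of the mature tRNA, was listed for 8 copies in the *SET2* experiment and for 2 in the *RRP6* experiment. The 10 copies have the same spliced sequence, and its first 30 bases are given here with the TSSC in capitals, as read from tN(GUU)F at chrVI:137530-137559 (-).
tN(GUU)F: gactccATGGCCAAGTTGGTTAaggcgtgc
The capitals hold the A box letters GGCNNAG. The 38 bases that follow the first and the last base of this TSSC each occur 10 times in the genome, once per copy, so a read starting there cannot be given to 1 copy, and the 10 copies are not separate measurements. Another 7 copies in the *RRP6* experiment had a wider TSSC that also takes in the leader and ends at base 22 of the tRNA or further in, and tN(GUU)P had one that began 109 nt upstream.

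Summed over the 10 copies in the *RRP6* experiment, the asparagine genes held 326 reads in *upf1∆rrp6∆*, 188 in *rrp6∆*, 221 in *upf1∆* and 91 in wild-type cells. In the *SET2* experiment they held 176 in *upf1∆set2∆*, 78 in *set2∆*, 159 in *upf1∆* and 48 in wild-type cells. Every one of the 10 copies had a higher value in *upf1∆* than in wild-type cells, in both experiments. By any amount, 11820 of all 17812 TSSCs of the *RRP6* experiment and 13091 of all 21707 of the *SET2* experiment were higher in *upf1∆*. Of the 10, 6 were more than 2-fold higher in *upf1∆* in the *RRP6* experiment and 9 in the *SET2* experiment. Of all TSSCs, 31.5% and 26.9% were. Reads may be shared among the copies, so they do not count as 10 separate results. The family was singled out after the data were seen. Without them, 3 of 162 tRNA TSSCs were more than 2-fold higher in *upf1∆* in the *RRP6* experiment and 1 of 34 in the *SET2* experiment. Asparagine genes were thus 6 of the 9 past 2-fold in the *RRP6* experiment and 9 of the 10 in the *SET2* experiment.

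The copy tN(GUU)F, on chromosome VI, held 16 reads in *upf1∆rrp6∆*, 11 in *rrp6∆*, 19 in *upf1∆* and 5 in wild-type cells of the *RRP6* experiment, and 28 in *upf1∆set2∆*, 14 in *set2∆*, 26 in *upf1∆* and 9 in wild-type cells of the *SET2* experiment. The copy tN(GUU)N2, on chromosome XIV, held 11 in *upf1∆rrp6∆*, 11 in *rrp6∆*, 9 in *upf1∆* and 3 in wild-type cells, and 12 in *upf1∆set2∆*, 4 in *set2∆*, 12 in *upf1∆* and 2 in wild-type cells of the *SET2* experiment. The widest, tN(GUU)P on chromosome XVI, held 154 in *upf1∆rrp6∆*, 70 in *rrp6∆*, 95 in *upf1∆* and 38 in wild-type cells, and 41 in *upf1∆set2∆*, 16 in *set2∆*, 39 in *upf1∆* and 9 in wild-type cells of the *SET2* experiment. In these 3 copies *set2∆* lay between wild-type cells and both *upf1∆* genotypes of the *SET2* experiment, whereas *rrp6∆* and *upf1∆* had no fixed order.

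**Figure D5:**
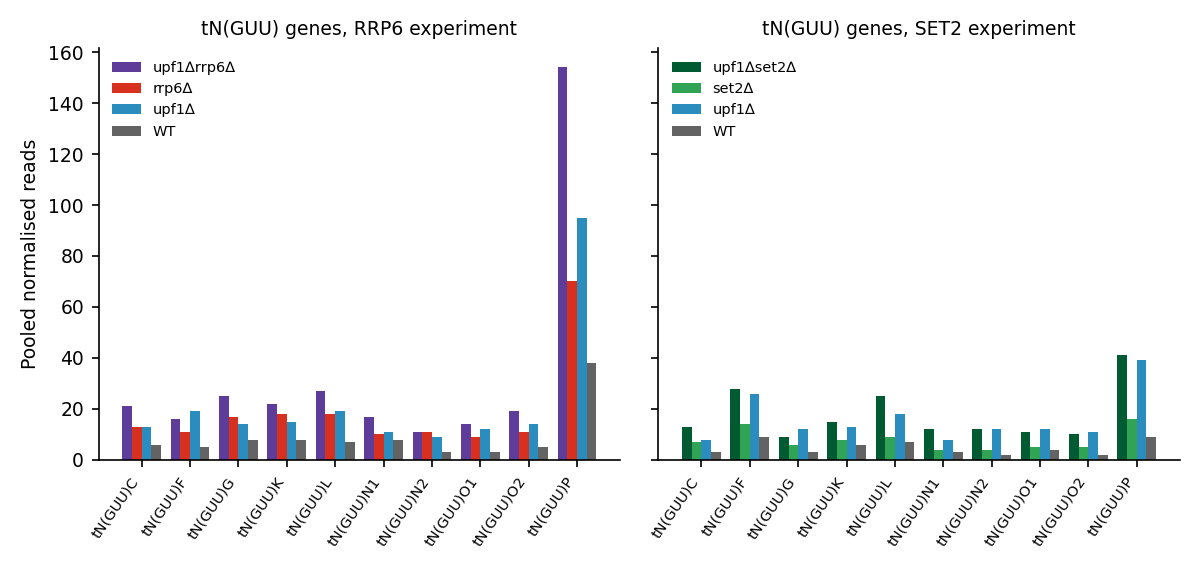
Pooled normalised reads (y axis) of the 10 asparagine tRNA genes tN(GUU) (x axis) in the 4 genotypes of each experiment. In both experiments the *upf1∆* bar is above the wild-type bar for all 10 copies, and tN(GUU)P is the highest copy, with 95 reads in *upf1∆* and 38 in wild-type cells of the *RRP6* experiment.

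In *set2∆* cells of the *SET2* experiment few tRNA genes were past 2-fold. Over the 44 tRNA TSSCs, 3 (6.82%) were more than 2-fold higher in *set2∆* than in wild-type cells, where 27.7% of all TSSCs of the table were, and 0 were more than 2-fold lower, where 1.33% of all were. The 3 were tY(GUA)M1 (SUP5), tV(AAC)O and SUP61. Of mRNA TSSCs, 3.77% were more than 2-fold higher. By any amount, 33 of the 44 were higher in *set2∆* and 2 were lower, and 14422 of all 21707 TSSCs were higher. The tRNA median log2 ratio was 0.58 against 0.42 for all TSSCs, and the sums were 240 in *set2∆* and 149 in wild-type cells. The 23 leader TSSCs summed to 41 reads in *upf1∆set2∆*, 75 in *set2∆*, 49 in *upf1∆* and 45 in wild-type cells. The leader with the highest mean over the 4 genotypes was the initiator gene IMT4, tM(CAU)E, on chromosome V, with 5 reads in *upf1∆set2∆*, 11 in *set2∆*, 8 in *upf1∆* and 5 in wild-type cells.

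The *upf1∆* comparison of this experiment gave 10 of 44 tRNA TSSCs more than 2-fold higher (22.7%), where 26.9% of all were, and 1 more than 2-fold lower, where 0.769% of all were. None of the 23 leaders was among the 10, and 9 of the 10 were asparagine genes. The tenth was SUP2, with 4 reads in *upf1∆set2∆*, 2 in *set2∆*, 9 in *upf1∆* and 3 in wild-type cells, over a TSSC of 62 nt that overlaps a long terminal repeat on the other strand. In *upf1∆set2∆* against wild-type cells, the 10 that were more than 2-fold higher (22.7%) were all asparagine genes, where 56.2% of all TSSCs were higher, and 1 was more than 2-fold lower, where 0.696% of all were. Against *upf1∆*, 0 of the 44 were more than 2-fold higher in *upf1∆set2∆*, where 34.9% of all were, and 2 were more than 2-fold lower, where 2.62% of all were. Against *set2∆*, 4 were more than 2-fold higher, where 36.9% of all were, and 5 were more than 2-fold lower, where 0.760% of all were. The values behind these counts are a few reads each.

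The experiments give 2 separate measurements of wild-type and *upf1∆* cells. Of the *RRP6* table's tRNA TSSCs, 35 overlapped a tRNA TSSC of the *SET2* table by at least 1 nt. Across these 35, on the log2(value + 1) scale, Pearson's r between experiments was 0.91 in *upf1∆* (Spearman's rho 0.83) and 0.76 in wild-type cells (rho 0.64), and the SD of the difference was 0.62 in *upf1∆* and 0.68 in wild-type cells. For the log2 ratio of *upf1∆* over wild-type, r was 0.79 (rho 0.78), and 0.66 (rho 0.61) across the 25 pairs without the asparagine genes. For the values themselves, those 25 pairs gave r 0.83 (rho 0.57) in *upf1∆* and r 0.77 (rho 0.40) in wild-type cells. These coefficients describe TSSCs, which share libraries and, between copies, reads.

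Few of the genes that make, process and survey tRNAs were past 2-fold, and few mRNA TSSCs in general were. Their mRNA TSSCs were summed per gene over lists of TFIIIC and TFIIIB, RNA polymerase III and its repressor Maf1, end maturation, splicing and export, and nuclear surveillance. Of 53 genes found in the *RRP6* experiment, 0 were more than 2-fold higher in *rrp6∆* and 1 was more than 2-fold lower, *RRP6* itself, with a median log2 ratio of 0.31, where 4.29% of all mRNA TSSCs were higher and 2.70% lower. Of 51 genes found in the *SET2* experiment, 0 were past 2-fold in either direction in *set2∆*, with a median of -0.05, where 3.77% of all mRNA TSSCs were higher and 1.14% lower. In *upf1∆*, 4 of the 53 and 6 of the 51 were more than 2-fold higher, where 13.5% and 13.7% of all mRNA TSSCs of the 2 experiments were, so these counts are no result about the lists. The genes past 2-fold included *POP3*, a subunit of RNase P, with 391 reads in *upf1∆* and 71 in wild-type cells of the *RRP6* experiment, and *LHP1*, the yeast La protein that binds the 3′ ends of tRNA precursors, with 2669 in *upf1∆* and 1227 in wild-type cells. *MAF1* held 177 in *upf1∆* and 76 in wild-type cells.

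By list, all 8 genes found for TFIIIC and TFIIIB and all 9 for splicing and export stayed within 2-fold in *rrp6∆*. *RPO31*, the largest subunit of RNA polymerase III, held 176 reads in *rrp6∆* and 175 in wild-type cells. *PAP2*, the poly(A) polymerase of TRAMP, held 541 in *rrp6∆* and 512 in wild-type cells, and *DIS3*, the catalytic subunit of the exosome, held 582 in *rrp6∆* and 402 in wild-type cells. None of the 12 names on the list of other RNA polymerase III transcripts, which include the RNA of RNase P (RPR1), the signal recognition particle RNA (SCR1), U6 (SNR6) and 5S rRNA, was found among the F TSSCs of either table, so the tRNA leaders could not be set beside them.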

How the data were processed

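For the TSS-sequencing libraries, poly(A)+ RNA was treated with phosphatase and then with TAP. It was ligated to a biotinylated oligonucleotide, fragmented and purified on streptavidin beads. The authors describe the product as enriched in capped 5′-ends. Whether the reads at tRNA genes came from capped RNA was not tested here. The authors removed duplicates by a random tag, mapped reads with Bowtie2 to S288C R64 together with *S. pombe*, grouped 5′-ends into TSSCs, filtered them on the gain with TAP and on starts at a purine preceded by a pyrimidine, and normalised with DESeq2 to reads upstream of ORF ATGs. The deposited score values are these normalised reads, 1 whole number per genotype, taken here as the rounded mean of 3 libraries. The tables also hold the fold changes and p-values of the authors' own comparisons, which were not used. The ±TAP and RNAseq libraries were not analysed here.

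Ratios were log2((value + 1)/(value + 1)), counted past 2-fold, with Python 3.11.15 and pandas. The counting was tested on simulated data with large changes, placed only in TSSCs with higher wild-type values than any leader. That check does not show how the counting behaves at values as low as those of the leaders. No test was made, because a pooled value carries no spread between libraries. Alternatives were pseudocounts of 0.1 and 4, minimum values, the mRNA median as zero, leader TSSCs only and sums per gene. 2 more were added after the data were seen, leaving out tN(GUU) and a minimum of 3 in the genotype compared against. Named genes were the 12 with the highest mean and the 8 largest and 4 smallest ratios per table, among sums of at least 20, the genes with names of their own and the 6 highest in both tables. Others were named for a position or for a small count. The members and lists were chosen with earlier results of these data known.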

Additional observations from a re-analysis of the deposited data

How the results depend on the processing

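Each comparison was recomputed as the share of tRNA TSSCs past 2-fold. Directions were kept in *rrp6∆*, where higher shares ranged over the alternatives between 28.5% and 81.4% and at most 0.581% were more than 2-fold lower. No paired analysis was possible because the tables hold 1 pooled value per genotype, and libraries could not be left out for the same reason. Because values are low, the pseudocount and the minimum value moved the shares most, and a minimum leaves fewer TSSCs to compare. Shares over all TSSCs were not computed for the other pseudocounts, the minimum means or the mRNA median. The shares of tRNA TSSCs at those settings therefore have no background beside them.

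With a pseudocount of 0.1, the share more than 2-fold higher was 81.4% for *rrp6∆* over wild-type, 17.4% for *upf1∆* (18.0% lower) and 86.0% for *upf1∆rrp6∆*, and 82.0% and 5.23% for *upf1∆rrp6∆* over *upf1∆* and over *rrp6∆*. In the *SET2* experiment 18.2% were higher in *set2∆* over wild-type, against 6.82% with a pseudocount of 1, 11.4% were higher in *upf1∆set2∆* over *upf1∆* and 25.0% lower over *set2∆*. With a pseudocount of 4, the higher share was 28.5% for *rrp6∆*, 2.33% for *upf1∆* and 38.4% for *upf1∆rrp6∆* over wild-type, and 32.6% and 0.581% for *upf1∆rrp6∆* over *upf1∆* and over *rrp6∆*. It was 0% for *set2∆* and 11.4% for *upf1∆* of the *SET2* experiment, and 0% were lower in any comparison.

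With a mean of at least 5 in the genotypes compared, higher shares over wild-type were 78.7% for *rrp6∆*, 40.0% for *upf1∆* and 89.1% for *upf1∆rrp6∆*, and 0% for *set2∆*, 76.9% for *upf1∆* and 76.9% for *upf1∆set2∆* in the *SET2* experiment, with 28.6% for *upf1∆set2∆* over *set2∆*. Where the 4 genotypes averaged 10 or more they were 17.4% for *upf1∆*, 91.3% for *upf1∆rrp6∆* over wild-type and 60.9% over *upf1∆*, and 0% for *set2∆*, 60.0% for *upf1∆*, 80.0% for *upf1∆set2∆* over wild-type and 40.0% over *set2∆*. Under both minimums 0% were lower in *upf1∆* over wild-type and in the *upf1∆set2∆* comparisons, and under the second 0% in *upf1∆rrp6∆* over *rrp6∆*. In the *SET2* experiment only 14 tRNA TSSCs had 4 values that sum to at least 20, most of them asparagine genes. The second minimum leaves fewer still, so its shares there are no result about tRNA genes in general.

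With leader TSSCs only, 2.14% were higher in *upf1∆* over wild-type and 77.1% in *upf1∆rrp6∆* over *upf1∆*, and 0% in *upf1∆* and *upf1∆set2∆* over wild-type and *upf1∆set2∆* over *set2∆* in the *SET2* experiment. Relative to the mRNA median, 18.0% were lower in *upf1∆* and 25.0% in *upf1∆set2∆* over *set2∆*.

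The next alternatives were chosen after seeing the data. Without tN(GUU), *upf1∆* had 1.85% higher in the *RRP6* and 2.94% in the *SET2* experiment, *upf1∆set2∆* had 0% over wild-type and over *set2∆*, and r between experiments for the *upf1∆* ratio was 0.66. With at least 3 in the genotype compared against, higher shares were 51.3% for *rrp6∆*, 15.4% for *upf1∆* and 45.5% for *upf1∆rrp6∆* over *upf1∆*, and 0% for *set2∆*, 42.1% for *upf1∆* and 42.1% for *upf1∆set2∆* over wild-type, with 0% lower in these *SET2* experiment comparisons. Sums kept their direction in *rrp6∆* and *upf1∆rrp6∆* over wild-type, at 6.50 and 7.35 times with leader TSSCs only. For *upf1∆set2∆* over wild-type and over *set2∆* the summed ratio was 0.911 and 0.547 with leader TSSCs only, against 1.97 and 1.23 over all.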
